A study of Bos indicus and Bos taurus with 17 samples.

Results

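The genes described here are 9 genes of the prolactin, growth hormone and STAT5 pathway. They are the receptors PRLR and GHR, the transcription factors STAT5A and STAT5B, the feedback inhibitors CISH and SOCS2, the partner factors ELF5 and NFIB, and the milk protein gene CSN3. They were chosen by name, and all 9 were found among 21442 distinct named genes. Mammary epithelial cells (MEC) had been taken from milk of Kashmiri and Jersey cattle with beads carrying an antibody to the cytokeratin KRT18. The cells were collected at day 15 (D15), D90 and D250 of lactation, and their poly-A RNA was sequenced. The labels name 17 samples in 6 groups, 3 samples in each but Jersey at D90, which has 2. Kashmiri is the unimproved local breed of the region, and Jersey is a dairy breed used to upgrade it. No treatment of the animals is named, and both breeds were housed at the same farm. All D15 samples carry March in their labels, all D90 samples July and all D250 samples December, so stage and month cannot be told apart. By the study's methods the chosen cows of each breed, all in their 3rd lactation, were milked on every day, so that the days would share animals. The labels instead give lactation numbers of 2 or 3, in a mix that differs between stages, and name no cow. Which samples share a cow could therefore not be checked, and the samples cannot be taken as separate cows.

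The values are FPKM, sequenced fragments normalised by transcript length and by the mapped reads of a library, and there is 1 value per group of breed and day. No spread between cows is given with them, so no test between groups could be made and every difference below is a description of 6 values. It cannot be said which neighbours in an order of levels differ beyond the spread between cows. The number of reads behind a value is unknown. Where 3 levels are listed together without days, they are those of D15, D90 and D250 in this sequence. Ratios of single genes are plain ratios of FPKM. For counts of genes, 1 FPKM was first added to each value, and a gene reaching 1 FPKM in either group was past the limit when its log2 ratio was 2 or more in size, a 4-fold difference.

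In the mammary epithelium, prolactin binds the receptor PRLR and growth hormone binds the related receptor GHR. Both receptors work through the kinase JAK2, which phosphorylates STAT5A and STAT5B, and the phosphorylated proteins enter the nucleus and switch on milk protein genes. CISH and SOCS2 are themselves STAT5 target genes whose products dampen the receptors. ELF5 is an epithelial transcription factor needed for the secretory alveoli, and NFIB binds beside STAT5 at milk protein genes. STAT5 is also used by cytokine receptors of leukocytes, so that its transcripts are not particular to epithelium. The level of a transcript says nothing of the phosphorylation of its protein.

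The labelled cell type was checked against marker genes. All 14 epithelial markers were found, and their summed level was 5035, 653 and 2190 FPKM in Kashmiri cows. The Jersey sums were 2658, 120 and 1242 FPKM, so D90 was the lowest day in both breeds. KRT18, the antigen of the capture, had 51.3, 9.13 and 11.5 FPKM in Kashmiri and 33.7, 1.59 and 4.51 FPKM in Jersey cows. Leukocyte markers were also present in every group, with PTPRC between 60.0 FPKM (Jersey, D15) and 320.2 FPKM (Jersey, D250). The 10 neutrophil markers found, of 12, summed to between 200.3 and 655 FPKM in Kashmiri and between 5376 and 15112 FPKM in Jersey cows. In cells pooled in this way, fewer cells of a type and less RNA per cell cannot be told apart. The part that cell composition has in the results below was not tested.

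Ligands of the pathway could not be followed. None of the 4 listed names, PRL, GH1, CSH2 and IGF1, was found among the entries. An entry named GH, looked up after the values were seen, was between 0 and 0.0358 FPKM.

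The prolactin receptor had a low level in all groups and was lowest at D90 in both breeds. Kashmiri cows had 2.64 FPKM of PRLR on D15, 0.409 on D90 and 1.08 on D250. Jersey cows had 0.523 FPKM on D15, 0.0464 on D90 and 0.435 on D250. Kashmiri was above Jersey on each day, and the D90 value was below the D15 value by 6.46-fold in Kashmiri and 11.3-fold in Jersey cows. At D15 in Kashmiri cows, PRLR ranked 8338 by FPKM among 15149 genes above 0.01 FPKM, and at D90 in Jersey cows it ranked 13857 of 15280. Only Kashmiri at D15 and D250 had at least 1 FPKM, so the ratios within Jersey cows rest on values far below that.

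The growth hormone receptor was also lowest at D90 in both breeds. GHR levels in Kashmiri cows were 2.36, 0.319 and 1.57 FPKM. Those in Jersey cows were 0.154, 0.0547 and 0.659 FPKM. Jersey D250 was thus the highest of the Jersey values, whereas Kashmiri D15 was the highest of the Kashmiri values as deposited. After scaling each group to its total FPKM less the milk protein genes, the log2 ratio of D250 over D15 in Kashmiri cows went from -0.59 to 0.42. Jersey was below Kashmiri at D15 by 15.3-fold, at D90 by 5.82-fold and at D250 by 2.37-fold. The ratio of PRLR to GHR within a group does not depend on the scaling between groups. It was between 0.660 (Jersey, D250) and 1.28 (Kashmiri, D90) in 5 groups and 3.40 in Jersey at D15.

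JAK2, the kinase that both receptors use, is not a member but links them to STAT5. Its levels were 4.61, 3.38 and 5.05 FPKM in Kashmiri and 6.55, 19.0 and 85.4 FPKM in Jersey cows. The Jersey value of D250 was 13.0-fold that of D15 and 16.9-fold the Kashmiri value of D250, while PRLR and GHR were lower in Jersey on that day. The log2 ratio of JAK2 between the breeds at D250 was 4.08 as deposited and 3.31 after the same scaling to the total. CSF3R, a neutrophil receptor gene in an entry joined with an unnamed one, had 310.4, 469 and 2549 FPKM in Jersey cows, and between 53.9 and 61.6 FPKM in Kashmiri cows.

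**Figure D1:**
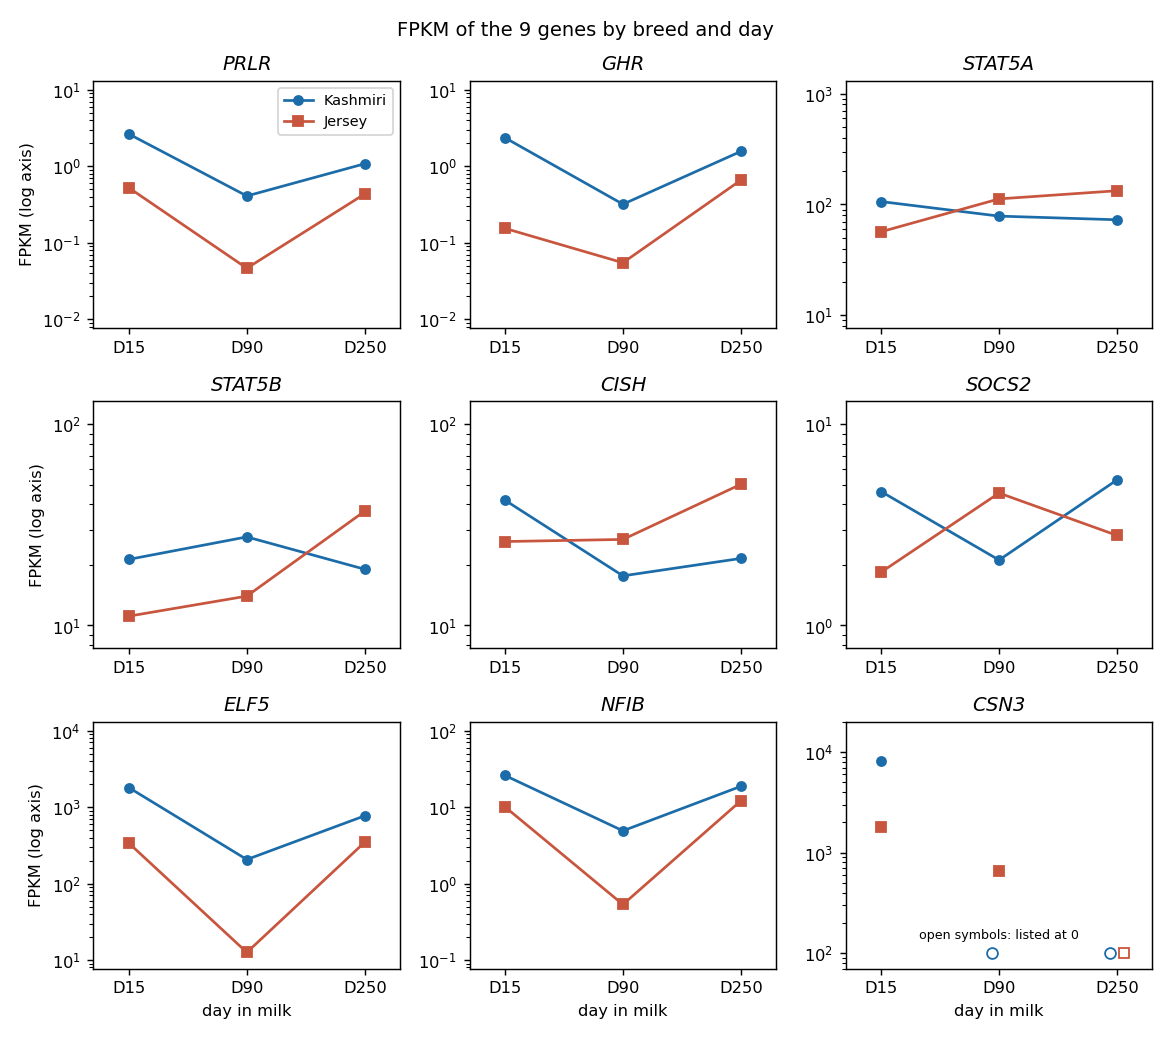
FPKM on a log axis of each of the 9 genes at D15, D90 and D250, with circles for Kashmiri and squares for Jersey cows, 1 value per group and no error; open symbols for CSN3 stand for values listed at 0 and are drawn at an arbitrary height. PRLR, GHR, ELF5 and NFIB have their lowest value at D90 in both breeds, whereas STAT5A and STAT5B do not.

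STAT5A, the main STAT5 of the mammary epithelium, had the narrowest range of the genes. Kashmiri cows had 106, 78.5 and 72.8 FPKM of it. In Jersey cows the levels were 56.7, 112 and 133 FPKM, in the opposite order of days as deposited. The highest of the 6 values was 2.35-fold the lowest, and both of these were Jersey values. In rank, STAT5A lay between 777 and 1541 of the genes above 0.01 FPKM in each group. Its log2 ratio of D90 over D15 was -0.44 in Kashmiri and 0.99 in Jersey cows, and both kept their sign under 2 other scalings. Its log2 ratio of D250 over D15 in Kashmiri cows, -0.55, became 0.47 after the scaling to the total, and that of D250 over D90 in Jersey cows went from 0.24 to -0.17.

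STAT5B, the close paralog of STAT5A, had a lower level in every group. Its levels in Kashmiri cows were 21.3, 27.6 and 19.0 FPKM. The Jersey levels were 11.1, 14.0 and 37.1 FPKM, so that D250 was 3.33-fold D15. The Kashmiri log2 ratio of D250 over D15 was -0.16 as deposited and 0.85 after the scaling to the total. Jersey was below Kashmiri at D15 and D90 and above it at D250, with log2 ratios of -0.94, -0.98 and 0.96. STAT5A was 4.99-fold STAT5B at D15 in Kashmiri and 5.10-fold in Jersey cows. At D90 the ratio was 2.85 in Kashmiri and 8.03 in Jersey cows, and at D250 it was 3.83 and 3.59. The coding sequences of both genes are similar and reads mapping to several places had been discarded. The level of each and their ratio are therefore uncertain, to a degree that was not measured.

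CISH, which blocks the docking of STAT5 on the receptors, had 42.0, 17.6 and 21.6 FPKM in Kashmiri cows. Its Jersey levels were 26.1, 26.8 and 50.4 FPKM. The highest value was therefore at D15 in Kashmiri but at D250 in Jersey cows, although the Kashmiri log2 ratio of D250 over D15 went from -0.96 to 0.05 with the scaling to the total. CISH was lower in Jersey than in Kashmiri cows at D15 (log2 ratio -0.68) and higher at D90 (0.60) and D250 (1.22). The ratio of CISH to STAT5A stayed between 0.225 (Kashmiri, D90) and 0.461 (Jersey, D15), and D90 was the lowest day in both breeds.

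SOCS2, a regulator best known for limiting growth hormone signalling, was below CISH in every group. Kashmiri cows had 4.64, 2.11 and 5.30 FPKM of SOCS2. Jersey cows had 1.84, 4.55 and 2.80 FPKM. D90 was the lowest day in Kashmiri and the highest day in Jersey cows, with log2 ratios of D90 over D15 of -1.13 and 1.31. CISH was between 4.07-fold (Kashmiri, D250) and 18.0-fold (Jersey, D250) the level of SOCS2.

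ELF5 had the widest range of the genes that were above 0 in all groups. Its Kashmiri levels were 1799 FPKM on D15, 206 on D90 and 770.3 on D250. Its Jersey levels were 338, 12.6 and 349 FPKM on these days. D90 was lower than D15 by 8.72-fold in Kashmiri and by 26.8-fold in Jersey cows, and D250 was higher than D90 by 3.73-fold and 27.7-fold. In Kashmiri cows ELF5 ranked 102, 334 and 109 among all genes above 0.01 FPKM. In Jersey cows it ranked 291, 4230 and 425. ELF5 was lower in Jersey than in Kashmiri on each day, by 5.32-fold at D15, 16.4-fold at D90 and 2.21-fold at D250. In Jersey cows D15 and D250 were within a log2 ratio of 0.04, the sign of which changed to -0.11 and -0.06 under the other scalings.

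NFIB, a nuclear factor I protein, is named in 2 entries of the table, of which that with the larger mean, joined with an unnamed gene, is given first. NFIB levels there were 25.9, 4.90 and 18.7 FPKM in Kashmiri cows. They were 10.1, 0.533 and 12.1 FPKM in Jersey cows. D90 was lower than D15 by 5.29-fold in Kashmiri and 18.9-fold in Jersey cows, so that NFIB had the same order of days as ELF5 as deposited. With the scaling to the total, the Kashmiri log2 ratio of D250 over D15 went from -0.47 to 0.54. Over the 6 group values of log2(FPKM + 1), the Pearson correlation of NFIB with ELF5 was 0.99, whereas that of STAT5A with ELF5 was -0.20. The other entry, which carries the name NFIB alone, had 12.1, 4.15 and 19.2 FPKM in Kashmiri and 1.82, 0.294 and 6.77 FPKM in Jersey cows. It too was lowest at D90 in both breeds, but its highest day was D250 in both.

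CSN3, the kappa casein that stabilises the casein micelle, had 8174 FPKM at D15 in Kashmiri cows, 1817 at D15 in Jersey and 653 at D90 in Jersey cows. It was listed at 0 in the other 3 groups. CSN1S1 and CSN2, the caseins beside it in the STAT5 target list, were above 0 only in Jersey at D90, with 949 and 1068 FPKM, as was PAEP, with 2076 FPKM. LALBA, the lactose synthase cofactor, was listed at 0 at D15 in both breeds and reached 13031 FPKM at D250 in Kashmiri cows. A 0 for a gene at this level in another group can be a failed estimate, so these 4 genes and CSN3 give no order of days. The 2 ratios of CSN3 that could be taken were 0.359 for D90 over D15 in Jersey cows and 0.222 for Jersey over Kashmiri at D15.

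Counted against all genes, 3 members were past the limit for D90 against D15 in Kashmiri cows, where 7.44% of 11215 genes tested were past it, 2.32% higher and 5.12% lower. These were ELF5 and NFIB, lower at D90, and CSN3 through a value listed at 0, which gives it no direction here. NFIB was near the limit, with a log2 ratio of -2.19, and the entry naming NFIB alone had -1.34. The count was 2 with that entry, with both NFIB entries summed, with the scaling to the total or with values listed at 0 left out. In Jersey cows 2 members, ELF5 and NFIB, were past the limit and lower at D90 (1 with the other NFIB entry), with 6.76% of all genes past it, 2.96% higher and 3.8% lower. Between D90 and D250 in Jersey cows ELF5 and NFIB were past it and higher, and CSN3 was past it through a 0, with 4.05% of all genes past it, 3.61% higher and 0.442% lower. In Kashmiri cows 0 members were past it between D90 and D250, with 1.96% of all genes past it, 0.846% higher and 1.11% lower. At a log2 ratio of 1, for which the share of all genes was not taken, 3 members were past it in that comparison. Between D15 and D250 the single member past the limit was CSN3 in each breed, through a 0. The share of all genes past it was 4.02% in Kashmiri cows, 1.85% higher and 2.17% lower, and 12.5% in Jersey cows, 9.05% higher and 3.42% lower.

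PRLR and GHR were not past the limit in any of the 9 comparisons. In the 3 comparisons within Jersey cows and between the breeds at D90 they did not reach 1 FPKM in either group and so were not counted. In the other 5 the pseudocount of 1 FPKM brought their log2 ratios to 1.54 or less in size. By plain ratio without a pseudocount, 4 members differed by at least 4-fold for D90 against D15 in Kashmiri cows, namely PRLR, GHR, ELF5 and NFIB. In Jersey cows 3 members did, PRLR, ELF5 and NFIB. The share of all genes by plain ratio was not taken, so these 2 counts have no background beside them. The median plain log2 ratio of the members in this comparison was -1.83 in Kashmiri and, being that of CSN3, -1.48 in Jersey cows. The median of all genes tested was -0.00 and -0.07, but with a pseudocount of 1 and only for genes reaching 1 FPKM. The 2 kinds of median are not alike, as that of the Jersey members takes in PRLR and GHR. With the pseudocount, STAT5A (0.97), STAT5B (0.31), CISH (0.03) and SOCS2 (0.97) were above 0 in Jersey cows. ELF5 (-4.64), NFIB (-2.85) and CSN3 (-1.48) were below 0. The epithelial marker list had medians of -1.66 and -3.33 with the pseudocount. Of its tested genes, 6 of 14 in Kashmiri and 10 of 13 in Jersey cows were past the limit and lower.

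Between the breeds at D15, all 9 members were lower in Jersey cows, with plain log2 ratios from -0.68 (CISH) to -3.94 (GHR) and a median of -1.36. The medians of all genes tested, with a pseudocount of 1, were -0.13, -0.04 and -0.11 on the 3 days. The share of all genes lower in Jersey by any amount was not taken, so the counts by direction have no background. Of the members, ELF5 and CSN3 were past the limit at D15, and 8.54% of all genes were past it, 6.48% higher and 2.06% lower. The direction of CSN3 is uncertain here, as it was listed at 0 in other groups. The entry naming NFIB alone was past it too, with a log2 ratio of -2.21 beside -1.28 for the entry used. At D90, 5 of the 8 members with a ratio were lower in Jersey and 3, STAT5A, CISH and SOCS2, were higher. ELF5 was past the limit at D90, and CSN3 through a 0, with 11.7% of all genes past it, 6.55% higher and 5.16% lower. At D250, STAT5A, STAT5B and CISH were higher in Jersey and the other 5 were lower, and 0 members were past the limit, with 12.2% of all genes past it, 10.8% higher and 1.37% lower. None of these ratios between the breeds changed sign under the 2 rescalings, but with the scaling to the total the log2 ratios at D250 went from 0.87 to 0.10 for STAT5A, from 0.96 to 0.19 for STAT5B and from 1.22 to 0.46 for CISH. With the limit at a log2 ratio of 1, 5 members were past it at D15 and 2 at D250. The share of all genes at that limit was not taken, and the shares above do not apply to it. Of the epithelial markers, the median log2 ratios were -0.83, -1.95 and -1.27 on the 3 days, and of the neutrophil markers they were 4.16, 3.90 and 4.79.

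**Figure D2:**
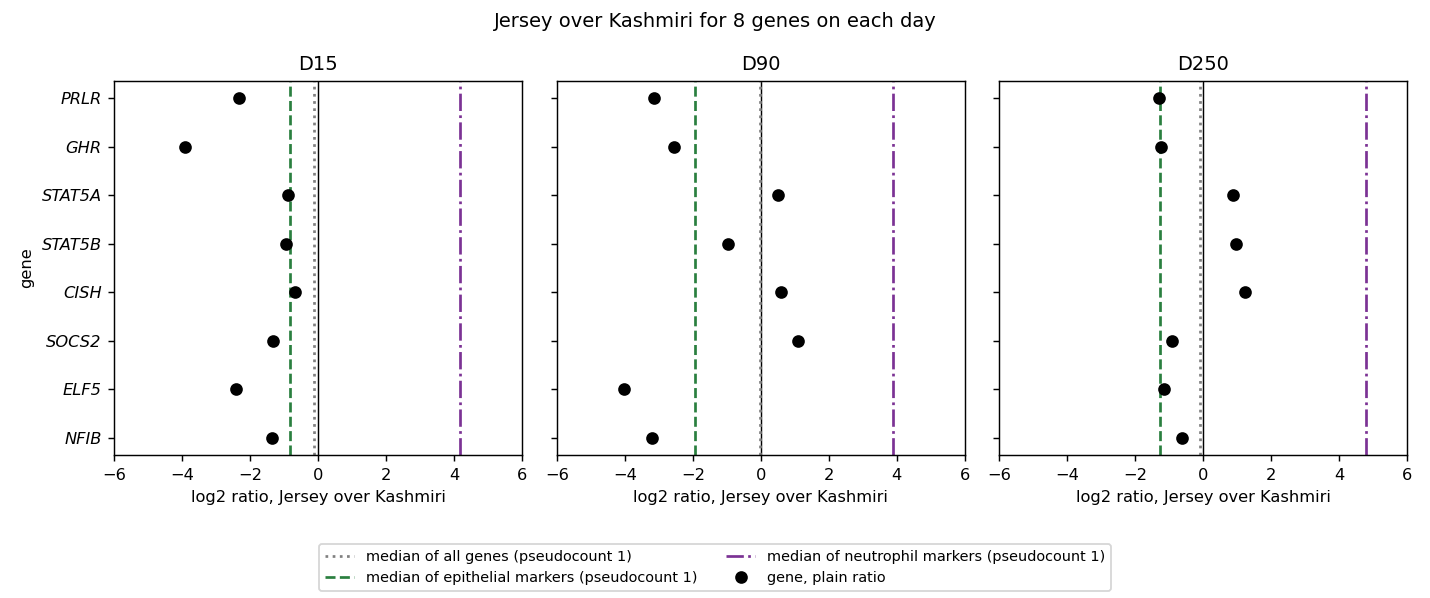
Log2 ratio of FPKM, Jersey over Kashmiri, for the 8 members other than CSN3 at D15, D90 and D250, with lines at the medians of all genes tested and of the epithelial and neutrophil markers (these with a pseudocount of 1 FPKM). All 8 points lie below 0 at D15, and STAT5A and CISH lie above 0 at D90 and D250.

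Ratios between genes of the same group are free of the scaling between groups, though not of how the libraries within a group were pooled. ELF5 was 16.9-fold STAT5A at D15 in Kashmiri cows, 2.63-fold at D90 and 10.6-fold at D250. In Jersey cows the same ratio was 5.96, 0.112 and 2.62 on these days. The order of ELF5 and STAT5A was thus reversed in 1 group, Jersey at D90. The ratio of NFIB to STAT5A was also lowest at D90, with 0.0624 in Kashmiri and 0.00474 in Jersey cows.

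Set against KRT18, the order of days was another one, in part by the choice of marker. ELF5 was 35.1-fold KRT18 at D15, 22.6-fold at D90 and 66.8-fold at D250 in Kashmiri cows, and 10.04-fold, 7.91-fold and 77.3-fold in Jersey cows. NFIB was 0.506, 0.536 and 1.62 of KRT18 in Kashmiri cows, and 0.299, 0.335 and 2.69 in Jersey cows. D250 was the highest day of both ratios in both breeds, but in Kashmiri cows KRT18 was the 1 epithelial marker past the limit in the lower direction for D250 against D15. Over CDH1, an epithelial cadherin chosen after its values were seen, ELF5 was instead highest at D15 in both breeds, with ratios of 146, 40.8 and 24.7 in Kashmiri and 34.3, 2.31 and 28.2 in Jersey cows. Taking each of the 14 epithelial markers in turn, ELF5 was highest at D250 over 3 of them in Kashmiri and 10 in Jersey cows, and at D15 over 9 and 4. Over the summed markers ELF5 was 0.357, 0.316 and 0.352 in Kashmiri and 0.127, 0.105 and 0.281 in Jersey cows. STAT5A, by contrast, was 2.07-fold KRT18 at D15, 8.60-fold at D90 and 6.31-fold at D250 in Kashmiri cows. In Jersey cows it was 1.69-fold, 70.6-fold and 29.5-fold, so that D90 was the highest day in both breeds. Unlike for ELF5, D90 was the highest day of STAT5A over 13 of the 14 epithelial markers in Kashmiri and 12 in Jersey cows. KRT18 and the summed markers were themselves lowest at D90, while STAT5A differed by at most 2.35-fold between groups. The highest days of these STAT5A ratios therefore follow largely from the markers and are no separate result. PTPRC, a general leukocyte marker, had 68.7, 166 and 87.9 FPKM in Kashmiri and 60.0, 120 and 320.2 FPKM in Jersey cows. The 5 markers of its list differed among themselves. For D250 over D15 in Jersey cows their median log2 ratio was 0.41 with a pseudocount of 1. PTPRC and CD53 were past the limit and higher there, whereas LSP1 went from 334 to 149 FPKM. The part of leukocytes in the level of STAT5A was not tested.

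**Figure D3:**
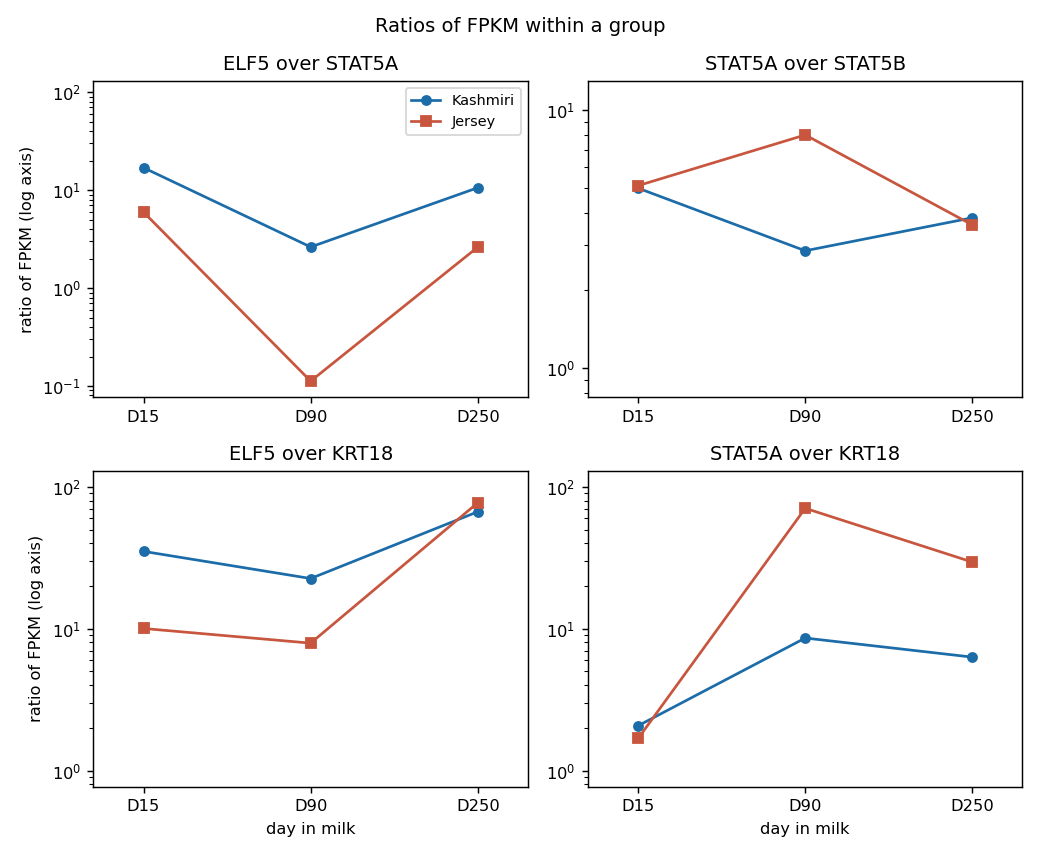
Ratios of FPKM between genes of the same group on log axes at D15, D90 and D250, with circles for Kashmiri and squares for Jersey cows, 1 value per group. ELF5 over STAT5A is lowest at D90 in both breeds (2.63 and 0.112), while STAT5A over KRT18 is highest there (8.60 and 70.6), where KRT18 itself is lowest.

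The other genes of the pathway were described from lists of names. Of 12 kinases and adaptors 11 were found, of 16 inhibitors all 16, of 12 partners of STAT5 11 and of 11 targets 9. Names not found in these lists were SIRPA, CEBPB, CSN1S2 and MCL1. A list of other STAT genes is described by the 3 members analysed here, STAT2, STAT3 and STAT6. In Kashmiri cows the share of all genes past the limit was 7.44% for D90 against D15, 4.02% for D250 against D15 and 1.96% for D250 against D90. For D90 against D15, FYN among the kinases and PIAS1 among the inhibitors were higher, as was LALBA among the targets through a 0, and NFIX among the partners was lower. For D250 against D15 the kinases and adaptors had 0 of 11 and the partners 0 of 11 past the limit in either direction, the inhibitors had PIAS1, and the targets had LALBA, through a 0. With the scaling to the total, TYK2 and SOS1 among the kinases and adaptors and CAV1 among the inhibitors were also past it and higher. The share of all genes past it and higher went from 1.85% to 7.21% with that scaling. For D250 against D90 as deposited, NFIX alone was past it, and higher at D250.

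At D250 against D15 in Jersey cows, the following were past the limit. Among the kinases and adaptors 5 of 11 tested were higher, namely JAK1, JAK2, TYK2, GRB2 and SOS1. Among the inhibitors 6 of 15 were higher, namely SOCS3, PTPN1, PTPN2, PIAS1, PIAS2 and BCL6. Among the partners 3 of 10 were higher, the glucocorticoid receptor gene NR3C1 and the coactivator genes CREBBP and EP300, and of the other STAT genes STAT3 was. In these 4 lists 0 genes were past the limit and lower. The share of all genes past the limit and higher was 9.05% in this comparison, and the medians of the 4 lists were 1.43, 0.93, 1.44 and 1.45 on the log2 scale beside 0.07 for all genes tested. With the scaling to the total 4 of 11, 4 of 15, 3 of 9 and 1 of 3 genes were past the limit and higher, with 7.75% of all genes. The summed neutrophil markers were 5376 FPKM at D15 and 15112 FPKM at D250 in Jersey cows, and their part in these counts was not tested. For D90 against D15 in Jersey cows, fewer genes were past the limit and higher, with 2.96% of all genes. They were 1 of 11 kinases and adaptors, 1 of 15 inhibitors, 1 of 10 partners and 0 of 3 other STAT genes. For D250 against D90 they were 1 of 11, 2 of 15, 1 of 10 and 1 of 3, with 3.61% of all genes.

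Between the breeds at D250, counts depended on the scaling. In Jersey cows 4 of 11 kinases and adaptors were past the limit and higher (JAK2, TYK2, GRB2 and IRS2), as were 4 of 16 inhibitors (SOCS3, PTPN1, PIAS1 and BCL6), 2 of 10 partners (CREBBP and EP300) and 3 of 3 other STAT genes (STAT2, STAT3 and STAT6). Of the targets, PIM1 and the survival gene BCL2L1 were higher. The list medians were 1.03, 1.19, 0.69, 2.22 and, for the targets, 0.65 beside -0.11 for all genes, and the share of all genes past the limit and higher was 10.8%. After the scaling to the total, the median of all genes was -0.75, and 3 of 11 kinases and adaptors, 4 of 16 inhibitors, 0 of 11 partners and 1 of 3 other STAT genes were past the limit and higher, with 6.69% of all genes, while IRS1, CAV1 and LALBA were past it and lower. STAT3 was the 1 STAT gene of the list past it under both rescalings, with STAT2 at 1.55 and STAT6 at 1.34 by plain log2 ratio after the scaling to the total. At D15 as deposited, 0 of 10 kinases and adaptors, 2 of 14 inhibitors, 0 of 10 partners and 0 of 3 other STAT genes were past it and higher. The share of all genes there was 6.48%. At D90 these counts were 3 of 11, 3 of 15, 0 of 10 and 0 of 3, with 6.55% of all genes. In these lists NFIX was past it and lower at D15, as were FYN and GATA3 at D90.

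The inhibitor SOCS3, which acts on cytokine receptors that signal through STAT3, had 12.2, 16.7 and 9.79 FPKM in Kashmiri cows. Its Jersey levels were 126, 110.1 and 874 FPKM. SOCS3 was above CISH in Jersey cows on each day, by 4.82-fold, 4.11-fold and 17.3-fold, and below it in Kashmiri cows, with ratios of 0.291, 0.946 and 0.454. STAT3 had 42.0, 33.8 and 40.6 FPKM in Kashmiri and 47.2, 68.8 and 300.1 FPKM in Jersey cows. The ratio of STAT3 to STAT5A was below 1 in 5 groups and 2.25 in Jersey at D250. BCL6, a repressor that competes with STAT5 for its sites, had 15.5, 24.9 and 13.3 FPKM in Kashmiri and 28.1, 42.7 and 207 FPKM in Jersey cows. PIM1, a survival kinase gene and STAT5 target singled out after its values were seen, had 62.2, 67.4 and 64.4 FPKM in Kashmiri and 83.5, 353 and 965 FPKM in Jersey cows. All of these Jersey values were highest at D250, as JAK2 was. SOCS3, STAT3 and BCL6 had been named for their ratio between the breeds at D250, and PIM1 from its values. Their shared highest day therefore follows from the choice and is no separate result.

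Other genes of the lists, also named for their largest ratios, differed mainly in Jersey cows as well. TYK2, another Janus kinase, had 3.47, 9.50 and 11.02 FPKM in Kashmiri and 11.9, 157 and 228 FPKM in Jersey cows. The adaptor GRB2 had 72.6, 98.4 and 70.1 FPKM in Kashmiri and 222, 561 and 909 FPKM in Jersey cows. PIAS1 had 1.72, 10.98 and 10.2 FPKM in Kashmiri and 4.97, 49.4 and 106 FPKM in Jersey cows, and so was lowest at D15 in both breeds. CREBBP reached 60.0 FPKM and EP300, in an entry joined with a microRNA gene, 62.0 FPKM at D250 in Jersey cows. STAT6 had between 20.4 FPKM (Kashmiri, D15) and 146 FPKM (Jersey, D250), and STAT2 between 8.63 and 59.1 FPKM in the same groups.

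NFIX, of the same gene family as NFIB, had the order of days of ELF5 and NFIB as deposited. Its levels were 19.4, 1.34 and 12.6 FPKM in Kashmiri and 2.43, 0.250 and 6.12 FPKM in Jersey cows. IRS1, an insulin receptor substrate singled out after its values were seen, had 6.58, 1.38 and 6.63 FPKM in Kashmiri and 2.81, 0.281 and 1.63 FPKM in Jersey cows. These 2 genes were therefore lowest on the day when the epithelial markers were lowest. NFIX had been named for its ratio of D90 over D15 in Kashmiri cows.

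**Figure D4:**
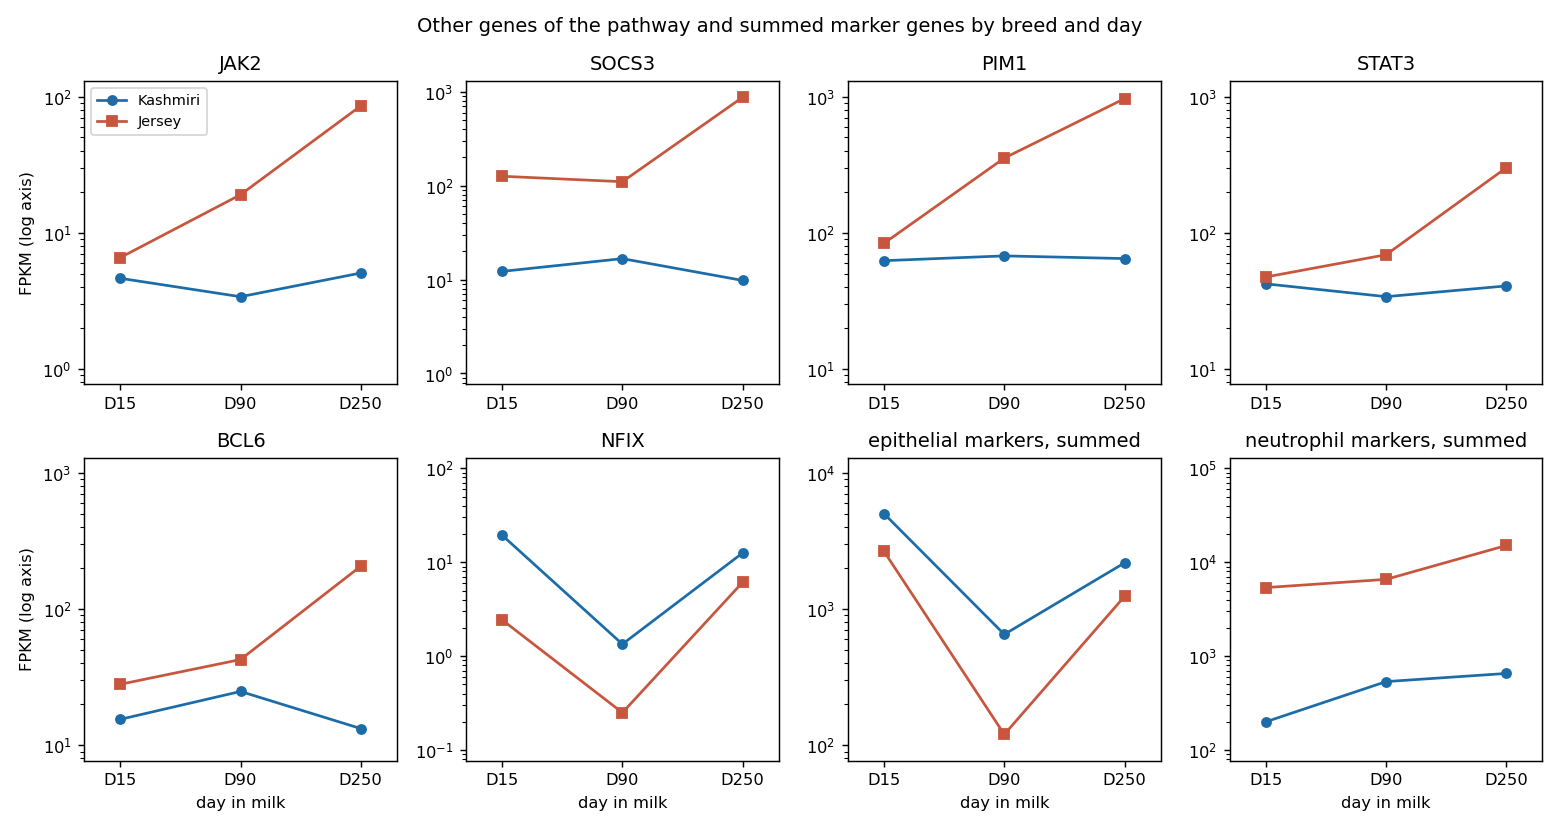
FPKM on log axes of JAK2, SOCS3, PIM1, STAT3, BCL6 and NFIX and summed FPKM of the 14 epithelial and the 10 neutrophil markers found, at D15, D90 and D250 in Kashmiri (circles) and Jersey cows (squares), 1 value per group. JAK2, SOCS3, PIM1, STAT3 and BCL6 have their highest value in Jersey at D250, as do the neutrophil markers. NFIX is lowest at D90 in both breeds, as are the epithelial markers. The genes other than JAK2 were picked by their ratios or values, so these shared days follow in part from the choice.

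The genes with the most similar pattern were sought among 6249 genes with a symbol and a mean of at least 5 FPKM, by the Pearson correlation of log2(FPKM + 1) over the 6 group values. The 6 points share their libraries, and the number of genes with a correlation above 0.98 was between 0 for SOCS2 and 30 for ELF5. The closest to ELF5 were MARC1 (0.999), EFHD1 (0.997) and RASAL1 (0.996). Those closest to NFIB were PRSS23, EFHD1 and MFSD4A, with correlations of 0.99 each, so that EFHD1 was named for both. For PRLR they were FAM234B (0.999), MID1 (0.99) and MGST2 (0.99), and for GHR HSD17B7 (0.99), EPRS (0.98) and NEDD4L (0.98). PRLR and GHR were below 1 FPKM in all groups but Kashmiri at D15 and D250. With 1 FPKM added, their correlations rest mainly on those Kashmiri values. STAT5A was closest to MORF4L2 (0.98), PTGES3 (0.97) and U4 (0.94), and STAT5B to HNRNPH1 (0.99), KDM6A (0.97) and UBR2 (0.97). CISH was closest to GPAT4 (0.99), VTI1B (0.97) and LSM14B (0.97), and SOCS2 to SSBP1 (0.98), TPD52 (0.93) and DESI1 (0.93). CSN3, with 3 values listed at 0, was closest to SDHB (0.98), GID8 (0.97) and TRIM27 (0.97). The lists of the 9 members shared no other gene.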

How the data were processed

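RNA of KRT18-captured milk cells was sequenced by the authors from stranded poly-A libraries. Per the study's methods, reads were trimmed with Trimmomatic, mapped with TopHat and Bowtie (assembly UMD3.1), reads with several matches were discarded, and FPKM were computed with Cufflinks and Cuffdiff. The deposited FPKM, 1 pooled value per breed and stage, were used as they are, the columns named Local being read as Kashmiri. The table has 61264 entries, 25121 of them named. A name was matched to its entry, or to a joined entry that holds it, and where several entries hold it that of the largest mean was taken. All 9 comparisons were computed over all named genes with at least 1 FPKM in either group. There being no values per library, no test was run. Depth per group is unknown, so no interval was computed. Members, gene lists and limits were chosen with earlier results of these data known. Named genes were the members, JAK2, the main milk protein genes, from each list the 3 genes with the largest ratio, the 3 most similar genes per member, and KRT18, PTPRC and CSF3R, with 1 further marker not reported here. IRS1, PIM1, CDH1 and the genes listed as past the limit fall outside this rule. The counting code was tested on simulated data. Alternatives were another pseudocount, minimum and limit, 2 rescalings (to the total FPKM without milk protein genes, and to the upper quartile), summed entries and, chosen after seeing the data, leaving out values listed at 0, the other NFIB entry, other epithelial markers than KRT18, and the gene lists under both rescalings. The software was Python 3.11.15 with pandas 2.3.3, numpy 2.4.6 and, for plots, matplotlib 3.10.9. Markers of other cells were listed too: macrophage markers summed to between 109 FPKM (Kashmiri, D15) and 2145 FPKM (Jersey, D90), T and NK cell markers to between 88.5 FPKM (Jersey, D250) and 1424 FPKM (Kashmiri, D90), B cell markers to at most 77.8 FPKM, myoepithelial markers to at most 10.9 FPKM, stromal markers to at most 2.30 FPKM and the 2 red blood cell genes found to at most 0.633 FPKM.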

Additional observations from a re-analysis of the deposited data

Results flagged for a closer look

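In 4 cases the log2 ratio of a member between the same days had opposite signs in the breeds, as deposited and under both rescalings. Each rests on 1 value per group, and the difference between the breeds was not tested. For D90 over D15, STAT5A had log2 ratios of -0.44 in Kashmiri and 0.99 in Jersey cattle, a difference of 1.42 (Jersey minus Kashmiri). CISH had -1.25 and 0.03, a difference of 1.285, the Jersey levels of 26.1 and 26.8 FPKM being nearly equal. SOCS2 had -1.13 and 1.31, a difference of 2.44, and for D250 over D90 it had 1.32 and -0.70, a difference of -2.02.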

How the results depend on the processing

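No paired analysis was possible because the columns hold 1 pooled value per group, and for the same reason no replicate could be left out. The counts of members past the limit were small and depended on the settings. With a pseudocount of 0.1 FPKM, 5 members were past it for D90 against D15 in Kashmiri and 4 between the breeds at D15, in place of 3 and 2. With an absolute log2 ratio of 1 the counts were 6 (D90 against D15), 3 (D250 against D90) and 2 (D250 against D15) in Kashmiri cattle, 3 for D250 against D15 in Jersey cattle, and 5 at D15 and 2 at D250 between the breeds. The share of all genes was not taken at this limit or with the other pseudocount, so these counts have no background beside them. With FPKM rescaled to the sum without the milk protein genes, 2 members were past it for D250 against D90 in Kashmiri and 1 between the breeds at D15, and with the upper quartile 1 was for D250 against D90 in Kashmiri cattle. With values listed at 0 left out, 0 members remained past it for D250 against D15 in either breed and 1 between the breeds at D90. With the other NFIB entry, 1 was past it for D90 against D15 in Jersey cattle, and NFIB was added to those past it between the breeds at D15. Of 74 plain ratios of members, 26 moved by over 1.5-fold with the rescaling to the sum, 3 with the upper quartile and 7 with the other NFIB entry. With the 2 rescalings 9 and 3 changed sign, and the largest of these was 0.96 in absolute log2 ratio. For all genes together, the rescaling to the sum took the median from -0.04 to 0.81 for D250 against D15 in Kashmiri cattle.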
